A study of Mus musculus with 265 samples.

Results

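Member regions were the chromatin regions that gained signal between 0 and 24 hours in both runs of the single-cell ATAC-seq experiment. They were chosen by a rule that compared 0-hour with 24-hour cells, so the difference between time-points that follows is a description and not a test. For each of 20103 regions, the share of cells with a count above 0 was computed in each of the 4 runs. A region was kept when it was detected in 15 or more cells and when the lower of the 24-hour shares was at least 1.5 times the higher of the 0-hour shares. Of the 20103 regions, 8906 were detected in 15 or more cells, and 353 of these met the rule (3.96%). The same rule in the opposite direction was met by 1287 regions (14.5%), which are called losing regions here. The number of gaining regions differed with the scale and the runs used. It was 933 on the scale of each run's total counts (CPM) and 275 when cells were thinned to the same number of counts. It was 1604 without 0-hour run 1, 437 without 0-hour run 2 and 307 without 24-hour run 2. The rule is looser with any run left out, because fewer runs are compared.

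The cells were ERt2-Ikaros B3 cells, a line of mouse pre-B cells that carries Ikaros joined to a part of the estrogen receptor, which 4-hydroxytamoxifen (4OHT) brings into the nucleus. The 0-hour cells were collected before 4OHT, and the 24-hour cells after 4OHT at a dose that the labels give as 20 mM, with an additional dose at about 12 hours. Both groups carry the inducible construct, so neither is a cell without it. The Fluidigm C1 instrument captured the single cells of each time-point in 2 separate runs, which hold 48 and 47 cells at 0 hours and 60 and 72 cells at 24 hours in the deposited matrix. Of the B-lineage genes checked, 8 of 10 had a region within 1 kb of the start site (Ikzf1 had none), and the most detected of these, at Ebf1, had a count in 38 cells. None of the 4 T-cell, 3 erythroid or 3 non-blood genes had such a region, and of the 3 myeloid genes only Lyz2 had a region, detected in 6 cells.

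ATAC-seq uses Tn5 transposase to cut and tag DNA that is not wrapped tightly in chromatin, so that a count in a region marks a fragment of open DNA in that cell. Promoters rich in CG dinucleotides, which include most promoters of housekeeping genes, are open in nearly every cell type, whereas enhancers tend to be open only in some. Ikaros is a zinc finger protein that binds sites around the letters GGGAA, and in pre-B cells it is known for turning off proliferation and genes of the pre-B cell receptor. A diploid cell holds few copies of a locus, so single-cell ATAC-seq counts are sparse, and no value in this matrix was above 2. A lower share of cells with open DNA and a lower capture of the same DNA in each cell cannot be told apart from such counts.

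Sequences are shown for some of the members with the widest gap between the time-points or with an edgeR call, because the results below turn on these members. They were read from the mm10 reference from RefSeq, 5′ to 3′, in lower case. Capitals mark a match on either strand to GGGAA (the Ikaros core), CCGGAAG (an ETS core), CATGCGC (a part of the NRF1 site) or TGACGTCA (a CREB/ATF site). The following 4 promoter stretches lie before the start sites of Kars (chr8:112011324-112011397, minus strand), Ube4a (chr9:44965601-44965681, minus strand), Tinf2 (chr14:55681821-55681999, minus strand) and Cic (chr7:25267483-25267633, plus strand), and for the former 3 only the part of the region outside annotated untranslated regions is given.
Kars: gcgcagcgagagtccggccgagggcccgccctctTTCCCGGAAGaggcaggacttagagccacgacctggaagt
Ube4a: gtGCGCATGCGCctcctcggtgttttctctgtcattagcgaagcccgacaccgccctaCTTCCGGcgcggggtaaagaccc
Tinf2: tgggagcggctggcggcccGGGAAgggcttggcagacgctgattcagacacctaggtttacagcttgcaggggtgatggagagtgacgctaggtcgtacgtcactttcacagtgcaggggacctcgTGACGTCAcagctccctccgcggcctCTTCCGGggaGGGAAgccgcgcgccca
Cic: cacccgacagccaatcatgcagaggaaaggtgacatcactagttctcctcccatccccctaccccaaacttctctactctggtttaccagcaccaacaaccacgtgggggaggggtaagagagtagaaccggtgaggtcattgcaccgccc
These are a choice. Those of Smim13, Cdc27, Arrdc3, P4ha2, Brox and the Aldh9a1 region were read as well and are not shown. Smim13, Cdc27, Arrdc3 and P4ha2 held none of the 4 motifs, and the Brox and Aldh9a1 regions held 1 GGGAA match each. In the Kars stretch a GGGAA match and a CCGGAAG match overlapped, the Ube4a stretch held 2 overlapping CATGCGC matches, and the Tinf2 stretch held 4 matches of 3 kinds. The Cic region held none of the 4 motifs. No stretch of 50 bases or more outside untranslated regions was left in the regions of Trappc5 and Fbxo24.

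The members with the widest gaps were of another kind, and 4 of them are shown on the plus strand. The regions chr10:82955231-82955382, chr1:56782173-56782354 and chr11:104072913-104073012 each resemble the ribosomal RNA locus, and chr9:124256384-124256496 is a stretch of a repeated unit.
chr10 region: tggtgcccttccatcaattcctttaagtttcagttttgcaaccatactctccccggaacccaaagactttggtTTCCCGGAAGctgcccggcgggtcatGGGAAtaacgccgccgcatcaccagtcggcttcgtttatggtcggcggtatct
chr1 region: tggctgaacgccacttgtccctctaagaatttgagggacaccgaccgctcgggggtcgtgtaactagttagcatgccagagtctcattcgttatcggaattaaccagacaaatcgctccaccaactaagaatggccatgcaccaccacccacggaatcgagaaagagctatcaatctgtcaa
chr11 region: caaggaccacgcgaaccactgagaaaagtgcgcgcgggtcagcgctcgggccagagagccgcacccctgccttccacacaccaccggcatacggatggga
chr9 region: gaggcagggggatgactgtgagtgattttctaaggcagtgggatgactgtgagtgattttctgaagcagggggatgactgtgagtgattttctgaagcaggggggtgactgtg
The chr10, chr1 and chr11 regions matched the ribosomal RNA locus around Rn18s-rs5 over 95%, 100% and 99% of their length, with identities of 95.1%, 96.7% and 97.0% in this order. Another member, chr12:36816274-36816420, matched it over 100% of its length with an identity of 92.5%. In all, 4 of the 353 members (1.13%) and 6 of the 8906 regions detected in 15 or more cells (0.0674%) matched this locus. The chr9 region had 144 matches in the reference genome at 90% identity over 80% of its length, and the chr10, chr1 and chr11 regions had 4, 2 and 3. Copies that the reference lacks or that the search missed are not in these numbers. A fragment from any of these copies can be placed in a region with several copies, so the counts there cannot be assigned to the named position.

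Across the 353 members, the median share of cells with a count was 4.17% and 4.26% at 0 hours (runs 1 and 2) and 11.7% and 15.3% at 24 hours. Over all 8906 regions the medians were 14.6%, 8.51%, 10.0% and 9.72% in the same order. The median gap between the lower 24-hour and the higher 0-hour share was 5 percentage points, from 1.21 to 25.4, and 41 members had a gap of 10 points or more. The median ratio of these shares was 1.87, and 138 members had a ratio of 2 or more and 45 of 3 or more, the 2 members with no count at 0 hours included. Most members were regions of few cells, as were most detected regions. Of the members 135 (38.2%) were detected in 15 to 19 cells, against 32% of all detected regions, and 12 (3.40%) in 50 or more, against 5.38%.

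**Figure D1:**
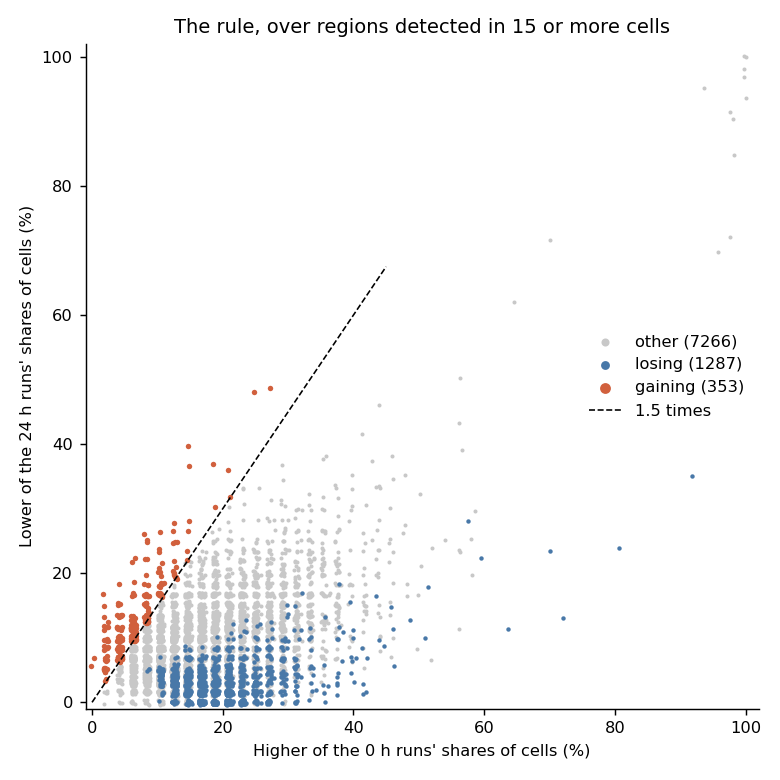
Each point is 1 of the 8906 regions detected in 15 or more cells, with the higher 0-hour share of cells on the x axis and the lower 24-hour share on the y axis, both in percent and moved by up to 0.35 points at random to separate points. The 353 gaining regions lie on or above the dashed line of 1.5 times, mostly at low shares, and the 1287 losing regions lie along the bottom.

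The lowest ratio was shared by 9 members within 1 kb of a start site, among them Eif4a2, Hif1an, Akirin1, Fggy and Coro1c, which had a higher 0-hour share of 8.33% (4 of 48 cells) and a lower 24-hour share of 12.5% (9 of 72 cells). Just outside the limit, the regions of Churc1, Dhdds and a region on chromosome 17 with no gene within 50 kb paired 8.51% (4 of 47 cells) with 12.5%, and those of Hist1h2bm and Synj2 paired 14.6% with 21.7%. Each 24-hour run exceeded each 0-hour run in 953 of the 8906 regions (10.7%), of which 600 were not members because their ratio was lower.

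The region with the widest gap was the chr10 region, 30192 bases before the start site of Chst11, a sulfotransferase of the Golgi. It had a count in 7 of 48 cells (14.6%, 95% exact binomial interval 6.07 to 27.8) and 1 of 47 cells (2.13%, 0.0539 to 11.3) at 0 hours, and in 24 of 60 cells (40.0%, 27.6 to 53.5) and 38 of 72 cells (52.8%, 40.7 to 64.7) at 24 hours. Both 24-hour runs were higher than both 0-hour runs, and of the intervals between time-points only those of 0-hour run 1 and 24-hour run 1 overlapped. The chr1 region, with no gene within 50 kb, had a count in 25% and 6.38% of the cells at 0 hours and in 48.3% and 63.9% at 24 hours. The chr11 region, likewise with no gene within 50 kb, had a count in 27.1% and 6.38% of the cells at 0 hours and in 48.3% and 66.7% at 24 hours. In these 3 ribosomal matches 0-hour run 2 was lowest and 24-hour run 2 highest, whereas the ribosomal match on chromosome 12 (6.25%, 0%, 13.3% and 11.1%) was highest in 24-hour run 1. The chr9 region had a count in 14.6% and 6.38% of cells at 0 hours and in 36.7% and 37.5% at 24 hours.

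**Figure D2:**
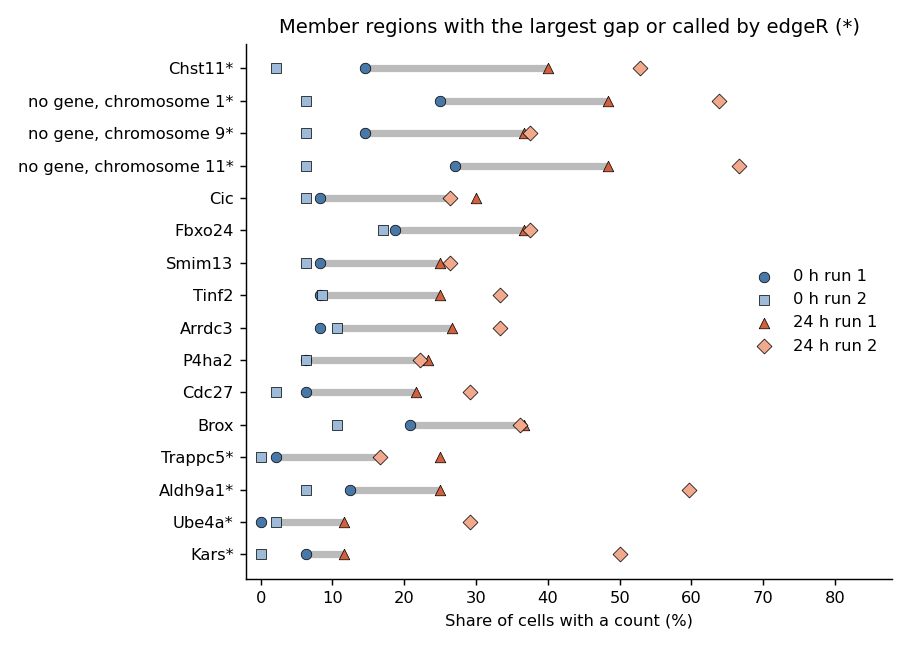
Share of cells with a count (x axis, percent) in each of the 4 runs for the 12 members with the widest gap and the other members called by edgeR, named by their gene or, with no gene within 50 kb, by chromosome. The grey bar spans the gap from the higher 0-hour to the lower 24-hour share, which was widest for Chst11 (25.4 points), and asterisks mark the 8 members with an edgeR adjusted p-value below 0.05.

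Among the 12 members with the widest gap, 5 had more than 1 copy in the genome and 5 lay within 1 kb of a start site of a gene. The latter were the regions of Cic, Fbxo24, Smim13, Tinf2 and Cdc27. At Cic, a transcriptional repressor, 8.33% and 6.38% of 0-hour cells and 30.0% and 26.4% of 24-hour cells had a count (4 of 48, 3 of 47, 18 of 60 and 19 of 72 cells). At Cdc27, a subunit of the anaphase-promoting complex, the shares were 6.25% and 2.13% at 0 hours and 21.7% and 29.2% at 24 hours. At Tinf2, a member of the shelterin complex at telomeres, they were 8.33% and 8.51% at 0 hours and 25% and 33.3% at 24 hours. In these 3 promoters the 95% exact binomial intervals of the higher 0-hour run and the lower 24-hour run overlapped. Fbxo24, an F-box protein, had the highest 0-hour level of these 5 promoters, with 18.8% and 17% at 0 hours and 36.7% and 37.5% at 24 hours. Smim13, a small membrane protein, had a count in 8.33% and 6.38% of the cells at 0 hours and in 25% and 26.4% at 24 hours. The regions of Arrdc3, an arrestin-domain protein, and Brox lay over 1 kb from the start site, at 2766 bases after and 2018 bases before it. Arrdc3 was detected in 8.33%, 10.6%, 26.7% and 33.3% and Brox in 20.8%, 10.6%, 36.7% and 36.1% of cells, in the order of the 2 runs at 0 hours and the 2 runs at 24 hours. The region assigned to P4ha2, 40069 bases after its start site, had 16 copies in the genome and was detected in 6.25%, 6.38%, 23.3% and 22.2% of cells. Nbeal1, at its start site, had the same gap as Brox (15.3 points) and was left out of the 12 only by the order of names, with 12.5%, 4.26%, 28.3% and 27.8%.

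The edgeR quasi-likelihood test on counts summed over the cells of each run called 8 of the 20103 regions higher at 24 hours (0.0398%) at a Benjamini-Hochberg adjusted p-value below 0.05, and all 8 were members. Since the rule used the same contrast, this overlap is not independent of the choice of members and is read no further. At an unadjusted p-value below 0.05, 1028 regions were higher at 24 hours (5.11%), of which 266 were members. The median log2 change was 2.12 over the members, −1.45 over the losing regions and −0.06 over all regions tested, on the scale of normalized counts. No member had a negative change, in the contrast that the rule used.

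The 8 called members fell into 2 kinds. The chr10, chr1, chr11 and chr9 regions shown above and a region 9562 bases before the start site of Aldh9a1 each had more than 1 copy in the genome. The other 3 were promoters of Kars, Ube4a and Trappc5, for which the search found no second copy. Kars, the lysyl-tRNA synthetase that charges tRNA with lysine, was detected in 3 of 48 (6.25%) and 0 of 47 cells at 0 hours and in 7 of 60 (11.7%) and 36 of 72 cells (50.0%) at 24 hours. Its log2 change was 4.16 ± 0.76 (SE, 2 runs per time-point, edgeR adjusted p = 0.00932). The 24-hour runs were far apart, and 24-hour run 1 lay nearer to 0-hour run 1 than to 24-hour run 2. Ube4a, a ubiquitin chain assembly factor, was detected in 0 of 48 and 1 of 47 cells (2.13%) at 0 hours and in 7 of 60 (11.7%) and 21 of 72 cells (29.2%) at 24 hours (log2 change 5.30 ± 0.99, edgeR adjusted p = 0.00932). Trappc5, a subunit of the TRAPP complex that tethers vesicles, was detected in 1 of 48 (2.08%) and 0 of 47 cells at 0 hours and in 15 of 60 (25%) and 12 of 72 cells (16.7%) at 24 hours (log2 change 5.24 ± 0.98, edgeR adjusted p = 0.00932). Trappc5 was the only one of these 3 promoters with the higher 24-hour share in run 1. With 3 counts as the limit that a count of 0 allows, the share could be as high as 6.25% in 48 cells and 6.38% in 47 cells, so for Kars and Trappc5 a low level in 0-hour run 2 was not detectable at this depth. The region before Aldh9a1, an aldehyde dehydrogenase, had a count in 12.5% and 6.38% of the cells at 0 hours and in 25% and 59.7% at 24 hours (log2 change 2.86 ± 0.56, edgeR adjusted p = 0.0155).
The number of calls changed with the setting. With run totals in place of the main scaling edgeR called 21 regions, 16 of them members, and with a replicate block 9. With the number of cells as offset, with DESeq2 size factors, or with counts reduced to detected or not detected, edgeR called 0 regions in the direction of 24 hours (before adjustment, 258, 964 and 1150 had a p-value below 0.05). DESeq2 likewise called 0 in this direction (452 before adjustment). The median log2 change of the members was 2.12 with DESeq2 size factors, as in the main fit. With a run left out, 1 time-point has a single run, the spread comes from the 2 runs of the other alone, and the lone run is assumed to vary like them. Fitted so, without 24-hour run 1 edgeR called 456 regions higher at 24 hours, of which 124 were members, and without 0-hour run 2 it called 1.

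Members lay mostly at start sites. Of the 353, 244 (69.1%) had their midpoint within 1 kb of the start site of a protein-coding gene, 32 lay in exons beyond that (9.07%), 21 in introns (5.95%) and 56 between genes (15.9%). Of the 8906 regions detected in 15 or more cells, 63% were this close to a start site and 14% in introns. For the losing regions these shares were 27.7% and 32.6%. Members thus held a somewhat higher share of promoters than all detected regions, and losing regions a much lower one. Regions are not replicates, and these differences were not tested. Of the 244 members at start sites, 149 had their midpoint within 100 bases of it and 136 lay upstream of it. Start sites on opposite strands within 1 kb were found at 36 members (10.2%), against 8.72% of all detected regions and 3.50% of losing regions. With start sites of all protein-coding transcripts, added after seeing the data, 78.2% of members and 70.5% of all detected regions lay within 1 kb.

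**Figure D3:**
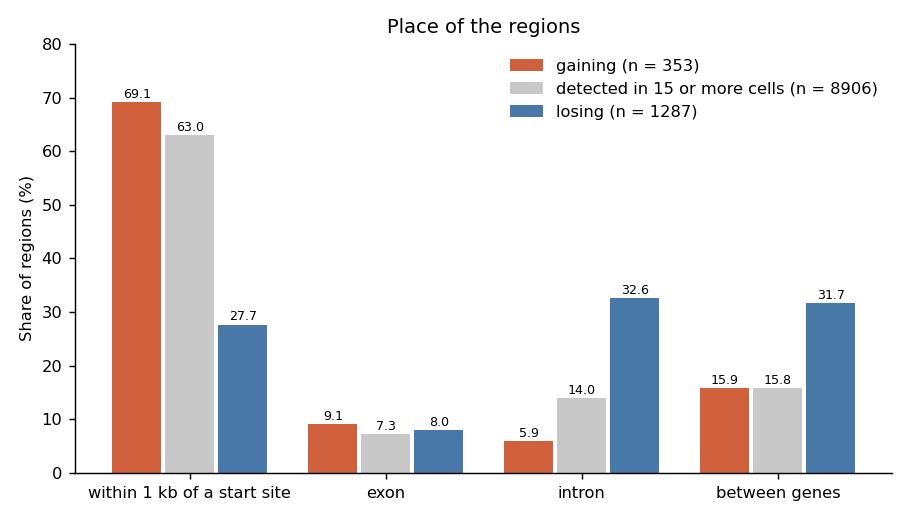
Share of regions (y axis, percent) in each of 4 places relative to protein-coding genes, for the 353 gaining regions, the 8906 regions detected in 15 or more cells and the 1287 losing regions. The bars at start sites are 69.1%, 63% and 27.7% high, and 5.9% of gaining regions are intronic.

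Members were rich in CG dinucleotides. The median GC content of the 150 bases around the midpoint was 66.7% in members (quartiles 58 and 72.7), 62.7% in all detected regions and 55.3% in losing regions. The median ratio of observed to expected CpG was 0.87, 0.76 and 0.35 in the same order. Among regions within 1 kb of a start site the order was the same, and the median GC content was 68% in members, 66% in all detected regions and 62.7% in losing regions. Among regions farther away, the median CpG ratio was 0.61 in 109 members, 0.36 in all such regions and 0.25 in losing regions. GC content can change how efficiently a fragment is amplified, and its part in the gain was not tested. Members had a median width of 147 bases, against 149 for all detected regions.

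**Figure D4:**
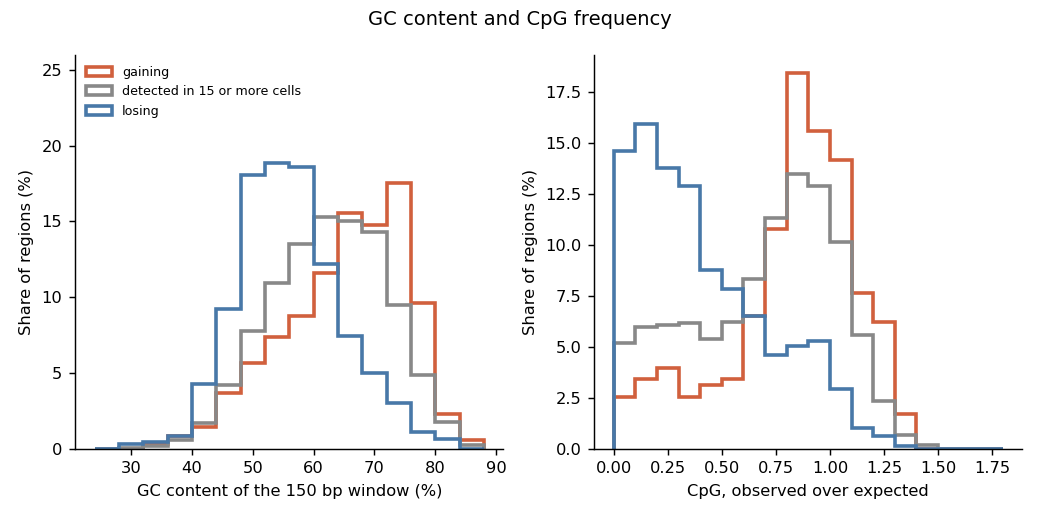
Distribution of GC content (left, percent) and of the ratio of observed to expected CpG (right) in the 150 bp window at the midpoint of each region, as the share of regions per bin (y axis, percent). The curve of the 353 gaining regions lies to the right of that of all detected regions (medians 66.7% and 62.7% GC), and the curve of the losing regions lies to the left (55.3%).

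The motifs searched included that of Ikaros, the factor that 4OHT brings into the nucleus. The letters GGGAA, on either strand of the 150-base window, were present in 27.8% of members, 37.4% of all detected regions and 43.1% of losing regions. At start sites the shares were 28.3% of members and 36.9% of all detected regions, and away from start sites 26.6% and 38.2%. The ETS core CCGGAAG was present in 16.4% of members and 13.6% of all detected regions, whereas the shorter ETS form GGAAGT, which shares letters with it, was present in 21% and 23.6% (23% and 22.1% at start sites). The NRF1 letters CATGCGC were present in 9.92% of members, 4.51% of all detected regions and 1.55% of losing regions, and the CREB/ATF site TGACGTCA in 5.10%, 2.71% and 1.09%. At start sites alone CATGCGC was present in 11.1% of members and 5.76% of all detected regions, and TGACGTCA in 6.15% and 3.39%. The GC box GGGCGG was present in 48.2% of members and 47.2% of all detected regions, with 52.5% and 60.8% at start sites and 38.5% and 24.1% away from them. The CCAAT box was present in 24.4% and 32.6%, with 25.8% and 39.5% at start sites and 21.1% and 21% away from them. The letters TGTGGT of RUNX factors were present in 5.95% of members, 11.1% of all detected regions and 23.6% of losing regions, and the shortened EBF1 palindrome TCCCNNGGG in 3.97%, 7.17% and 12.4%. The AP-1 site TGANTCA was present in 1.98%, 2.99% and 6.60%, with 5.50% of members and 5.40% of all detected regions away from start sites. The shortened CTCF core AGGGGGC was present in 13.3%, 9.58% and 4.43%. The E-box CANNTG was present in 37.1% of members and 42.6% of all detected regions, its form CACGTG in 5.67% and 6.66% (7.34% and 5.43% away from start sites), and the YY1 letters GATGGCG in 5.10% and 3.40%. The forkhead letters TGTTTAC (1.42% and 1.09%), the IRF letters GAAANNGAA (1.70% and 3.01%) and the promoter element TCTCGCGAG (1.13% and 1.11%) were rare in both. All motifs were searched on both strands. These are matches of letters in a window and not sites of binding, and GC-rich letters are more frequent in GC-rich windows.

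Copies elsewhere in the genome were found for 18 members (5.10%), against 3.30% of all detected regions and 3.65% of losing regions. The ribosomal match on chromosome 12 had an identity of 92.5% to the ribosomal RNA locus over its whole length but was given 1 copy. The search thus misses some copies, and these shares are lower limits. Among regions chosen by the rule with a run left out, most of them other regions in 3 of the 4 cases, the share lay between 3.05% and 5.21%. More than 50% of the bases were repeat-masked in 11 members (3.12%) and in 1.03% of all detected regions. No member matched the mitochondrial genome, which 14 losing regions did. On chromosome 16, 5 members lay side by side between 3231763 and 3237380, with no protein-coding gene within 50 kb, and all 5 were more than 50% repeat-masked. Of these 5, 4 had between 2 and 5 copies in the genome, so their counts cannot be assigned to this position. Their shares of cells ranged from 2.08% to 4.17% in 0-hour run 1, from 2.13% to 6.38% in 0-hour run 2, from 10.0% to 20.0% in 24-hour run 1 and from 9.72% to 23.6% in 24-hour run 2. Members lay on all autosomes and on the X chromosome, from 1.39% of the detected regions of chromosome 6 (5 regions) to 6.59% of those of the X chromosome (11 regions). No member lay on the Y chromosome.

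A protein-coding gene had its closest start site within 50 kb of 321 members, and these members named 317 genes. Only 4 genes were named by 2 members. Bcl2l11, which encodes the pro-apoptotic protein Bim, had a member 235 bases before its start site, detected in 6.25% and 4.26% of 0-hour cells and 11.7% and 31.9% of 24-hour cells. Its second member, 1466 bases after the start site, was detected in 6.25% and 2.13% at 0 hours and 10.0% and 11.1% at 24 hours. Otulin, a deubiquitinase of linear ubiquitin chains, had members at its start site (2.08%, 2.13%, 5% and 15.3% in the order of runs) and 33705 bases after it (2.08%, 2.13%, 3.33% and 16.7%). Coa5, an assembly factor of cytochrome c oxidase, had members 6 bases before and 22777 bases after its start site, and Prrc2b 2 members 13062 and 18268 bases before it. Adjusted p-values of these 8 members by edgeR were all above 0.1.
Other detected regions of the genes of all members had a median change near 0. The 140 regions of these genes that were detected in 15 or more cells and were not members lay at 99 genes. Their median log2 change was 0.09 (quartiles −0.63 and 0.75), and that of the 7604 regions of other genes was 0.23. Of the 140 regions, 19 were losing regions (13.6%), against 12.6% of the regions of other genes. Losing regions of the members' genes included Fli1, 38615 bases from the start site, Dusp2 and Prrc2b (20.8%, 14.9%, 6.67% and 4.17% in the order of runs). A losing region 592 bases before the start site of Aldh9a1 (12.5%, 8.51%, 5% and 4.17%) was wholly repeat-masked and had 5596 copies in the genome, so its counts cannot be assigned to that position.

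The genes of the members were set against 25 lists of genes by function. Of the 25 lists of genes, 22 had a member. The number of members is set against the 3.96% of detected regions that met the rule, and that of losing regions against 14.5%. Of histone genes, which package DNA and are transcribed in S phase, 5 of 44 detected regions were members (11.4%) and 1 was a losing region. These were Hist1h2ad, Hist1h2bj, Hist1h2ac, Hist1h3e and Hist1h2ai, which all lie in the histone cluster of chromosome 13. Hist1h2ad was detected in 10.4%, 4.26%, 23.3% and 31.9% of cells and Hist1h2bj in 8.33%, 4.26%, 20.0% and 26.4%, in the order of runs. Histone genes of this cluster are near-identical in their coding parts. The midpoints of these members lay 45 to 126 bases before the start sites, and the search found no second copy of them. Whether their counts can be assigned to single genes was not tested.
Of cytosolic ribosomal proteins, 5 of 64 detected regions were members (7.81%), among them Rpl10, Rpl14, Rps24 and Rps7, and 6 were losing regions. Of these members, the regions of Rpl10 (8.33%, 10.6%, 16.7% and 18.1%) and Rps7 (8.33%, 6.38%, 13.3% and 22.2%) lay at the start site. Rpl10 also had a losing region 552 bases before its start site (16.7%, 17%, 8.33% and 2.78%). The Rpl14 member lay 5826 bases after its start site and 61 bases before that of a long non-coding RNA. A losing region lay 11325 bases after the Rpl14 start site. No region of the 39 of mitochondrial ribosomal proteins was a member, and 5 were losing regions (12.8%). Of the proteasome and ubiquitin list, 5 of 70 regions were members (7.14%), at Ube4a, Ube2m, Ube2z, Psmd6 and Psmg4, and of RNA polymerase, Mediator and TFIID 5 of 64 (7.81%), beside 4 and 3 losing regions. Among the latter Med13l, of the Mediator kinase module, had 2.08% and 2.13% at 0 hours and 16.7% and 12.5% at 24 hours.
Solute carriers had 10 members among 144 regions (6.94%), zinc finger proteins 13 of 295 (4.41%) and Golgi and vesicle trafficking 7 of 149 (4.70%), beside 16, 36 and 15 losing regions. By the gap in points, the widest among the solute carriers was that of Slc25a51, a mitochondrial carrier of NAD, with 10.4%, 4.26%, 20.0% and 34.7%, and among the zinc finger proteins that of Zfand3, with 4.17%, 6.38%, 16.7% and 22.2%. Splicing factors had 1 member (U2af2) among 71 regions (1.41%), and translation factors 1 (Eif4a2) among 54 (1.85%), and each list had 7 losing regions. Oxidative phosphorylation had 2 of 46 (4.35%), and of these Cox4i1, a subunit of cytochrome c oxidase, had no count at 0 hours (0 of 48 and 0 of 47 cells) and 6.67% and 19.4% at 24 hours. Against the limit that a count of 0 allows, no fold is given for it, and its edgeR adjusted p-value was 0.0563. The only other member with no count at 0 hours was the region of Gp1bb, with 18.3% and 5.56% at 24 hours.

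Genes of the cell cycle had 4 members among 65 regions (6.15%) and 9 losing regions. The members were at Cdkn2c and Cdkn1a, inhibitors of cyclin-dependent kinases, and at the polo-like kinases Plk4 and Plk3. Cdkn2c, 302 bases after the start site, had a count in 4.17% and 2.13% of the cells at 0 hours and in 11.7% and 15.3% at 24 hours. Cdkn1a, 4596 bases after the start site, was detected in 0% and 6.38% at 0 hours and 10.0% and 13.9% at 24 hours. Plk4 was detected in 6.25% and 0% at 0 hours and 11.7% and 33.3% at 24 hours, with the 24-hour runs again far apart. The BCL2 family had 2 members among 13 regions, both at Bcl2l11, and the NF-kappaB list 2 of 14, at Traf2 (14.6%, 10.6%, 28.3% and 36.1%) and Ikbkb (6.25%, 2.13%, 10.0% and 11.1%). No region of the 36 of the pre-B cell receptor and its signalling was a member, and none of 9 regions of V(D)J recombination was. With 3.96% of all detected regions as members, lists of this size would hold few or none. Of the 36 regions 12 (33.3%) and of the 9 regions 2 (22.2%) were losing regions, against 14.5% of all detected regions. Of B-lineage transcription factors, 1 of 32 regions was a member, 1062 bases after the start site of Tcf4, an E protein, with 6.25%, 6.38%, 15% and 11.1%. Single members were found, among others, for antigen presentation (H2-D1), adhesion and homing (S1pr1), chromatin remodelling (Smarca4), energy sensing (Ldha), DNA replication (Rpa2) and autophagy and lysosome (Atp6v0d1). The list of aminoacyl-tRNA synthetases had Kars alone among 22 regions. No list was tested for enrichment, and lists of few regions give little precision.

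Members differed between the runs of a time-point as well. At 24 hours run 2 had the higher share in 215 members (60.9%) and run 1 in 132, whereas over all detected regions run 2 was higher in 46.6%. In 57 members the share in 24-hour run 2 was at least 2 times that in run 1, and in 9 members the reverse held. At 0 hours run 1 was higher in 55.8% of members and in 79.9% of all detected regions. No count was found in 0-hour run 2 for 58 members and in 0-hour run 1 for 11. The median cell of 0-hour run 1 had 2898 counts over all regions, against 1787 in 0-hour run 2 and 1839.5 and 1676 at 24 hours, and a deeper cell is more likely to have a count in any region. On the scale of each run's total counts (CPM), 933 regions met the limit of 1.5, of which 312 were members (88.4% of the members and 33.4% of the 933). When each cell was thinned to 837 counts, which left out 23 cells, 22 of them from 24 hours, 275 regions met the rule and 56 of them were members (15.9% of the members and 20.4% of the 275). The limit of 15 cells was kept after thinning, and the median member was detected in 21 cells before it. Members can thus drop out by that limit as well as by their ratio.

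The members were also counted in each cell. The median 0-hour cell had a count in 4.11% of the 353 members in run 1 (1.13% to 16.7%) and in 3.97% in run 2 (0.85% to 11%). The median 24-hour cell had a count in 12.7% in run 1 (2.83% to 43.9%) and in 14.7% in run 2 (2.55% to 38.5%). After thinning to 837 counts the medians were 1.70% and 1.98% at 0 hours and 7.65% and 9.63% at 24 hours, and 47 of 47 and 63 of 63 24-hour cells lay above the higher 0-hour median. The highest thinned 0-hour cells reached 4.53% and 5.10%, and the lowest 24-hour cells 3.97% and 5.67%, so that the ranges of both 0-hour runs overlapped that of 24-hour run 1 and not that of 24-hour run 2. Over the other 8553 detected regions the thinned medians were 5.86%, 5.49%, 5.78% and 6.02%. Members within 1 kb of a start site and those farther away both lay higher at 24 hours, with thinned medians of 2.05%, 2.05%, 6.97% and 9.43% for the former and 0.92%, 1.83%, 7.34% and 9.17% for the latter. The difference between time-points in these shares follows from the choice of members and is not tested.

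**Figure D5:**
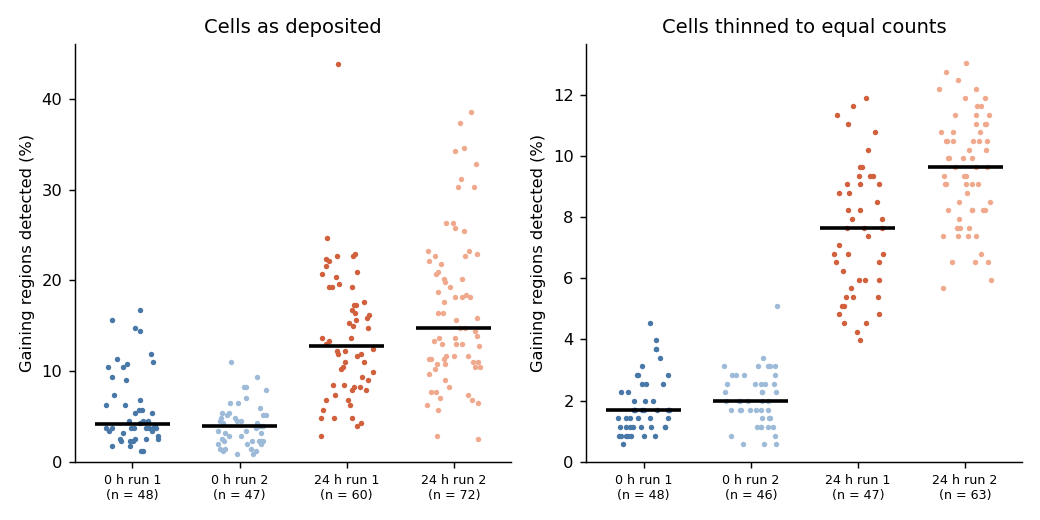
Share of the 353 gaining regions with a count (y axis, percent) in each cell, by run, for cells as deposited (left) and thinned to 837 counts (right). Points are cells and black bars are medians, which are 4.11%, 3.97%, 12.7% and 14.7% on the left and 1.70%, 1.98%, 7.65% and 9.63% on the right.

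Signal in a member was made of single counts and pairs alike. Of the values above 0 in members, 48.9% and 45.5% were 2 at 0 hours and 52.4% and 56.8% at 24 hours, against 56.5%, 52.7%, 54% and 56.7% over all detected regions. The members held 0.90% and 1.06% of all counts at 0 hours and 3.62% and 4.69% at 24 hours. With only values of 2 counted as detection, 188 regions met the rule, of which 81 were members.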

How the data were processed

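Single-cell ATAC-seq libraries of ERt2-Ikaros B3 cells were aligned by the authors with Bowtie2 to mm10, duplicates were removed with Picard and peaks were called with HOMER on bulk samples, and each cell was quantified in these peaks. The authors deposited whole-number counts, 20103 regions by 227 cells, without normalization, and all columns were used. The deposited matrix held 164357, 92639, 122586 and 142611 counts in the 4 runs. The labels list 48, 63, 75 and 73 single cells for these runs, no bulk sample was analysed, and the sources do not say whether runs came from separate cultures, so p-values measure the spread between runs. The matrix holds no value above 2, and the sources used here do not say why.

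The member regions and the gene lists, motifs and tests were chosen with earlier results of these data known. Counts were summed per run and tested with edgeR 4.0.16 (TMM, quasi-likelihood, R 4.3.3) over all 20103 regions, and DESeq2 1.42.0 was an alternative. The region test was also run on simulated counts, and its outcome there is not given here. Regions were assigned to the closest protein-coding start site of GENCODE vM21 within 50 kb. Copies were searched with BLAST 2.17.0 in the reference of the same build, at 90% identity over 80% of a region, and ribosomal matches at 80% identity over 80%. The copy search starts from a long exact match, so it can miss copies within these limits. A start of a region was read as counted from 1. The regions named were the 12 with the widest gap, those called by edgeR, up to 6 per gene list, 5 on each side of the limit, and those of genes with 2 members. A few others, such as Nbeal1, Gp1bb, the chromosome 12 ribosomal match and the chromosome 16 block, were named after their values were seen. Some genes of the lists are counted but not reported by name here. Cells were thinned to the 10th percentile of their counts. No doublet caller was run, as the authors looked at every capture site. Intervals cover counting error only. Alternatives were other limits, scalings, thinned cells, a replicate block and each run left out.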

Additional observations from a re-analysis of the deposited data

How the results depend on the processing

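The number of gaining regions depended on the limits and on the measure. It was 530 with at least 10 cells, 81 with at least 30, 558 with a lower ratio, 138 with a ratio of 2, 188 with only values of 2, 275 with thinned cells and 933 with CPM, and between 307 and 1604 with a run left out (1604 without 0-hour run 1, 437 without 0-hour run 2, 792 without 24-hour run 1). Of the 353 members, 303 met the rule without 0-hour run 1, 318 without 0-hour run 2, 173 without 24-hour run 1 and 104 without 24-hour run 2. Leaving out a run cannot lower a member's ratio, so the members lost fell under the limit of 15 cells, and the regions gained met a looser rule. The number of edgeR calls higher at 24 hours, 8 in all, became 21 with run totals and 0 with cell numbers as offset, DESeq2 size factors, the DESeq2 test or detection only, and between 1 and 456 with a run left out (1 without 0-hour run 2, 456 without 24-hour run 1), where the 2 runs of the other time-point supply all of the spread and the lone run is assumed to vary like them. The cause was not tested. The median log2 change of the members was 1.64 with the number of cells as offset, where the median of all regions was −0.51 instead of −0.06, and between 1.83 and 2.28 with a run left out. With a replicate block it was 2.08 with 9 calls. Deviations of the runs with the same number from their time-point means had a correlation of −0.01 over all regions. Most regions have few counts, so this value cannot show whether runs were paired. The labels give no shared batch for a number. The share near a start site was 83.3% for members chosen on thinned cells, where the limit of 15 cells keeps other regions, and 78.2% with all transcripts, and between 71.7% and 79.2% with members chosen without a run. The share with more than 1 copy lay between 3.05% and 5.21%, and that with GGGAA between 31.6% and 35%, with members chosen without a run. The gap between the lower 24-hour and the higher 0-hour run median of the share of members per cell was 8.64 points and 5.67 points after thinning. The alternatives by transcript and by run for the shares were added after seeing the data. With 2 runs per time-point and a median member detected in 21 cells, single members have wide counting intervals.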
